A study of Mus musculus with 10 samples.

Results

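A set of 10 genes that mark liver sinusoidal endothelial cells or encode the signals these cells send to hepatocytes was followed in the livers of tumour-bearing mice with and without cachexia. They are Pecam1, Kdr, Stab1, Stab2, Lyve1, Clec4g, Gpr182, Wnt2, Rspo3 and Bmp2. The rule behind the list is a set of gene names into which no measured value enters. The names were, however, chosen with earlier results of these data known. They make up 10 of the 43629 genes in the count table. All 10 had enough reads to be tested, among 14143 genes that did.

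The livers came from an inducible mouse model of lung cancer, on a background crossed to FVB, in which all 10 mice carried Lkb1 flox/flox alleles (Lkb1 is the protein name of Stk11). Lung tumours were started by giving adenovirus with a CMV-driven Cre recombinase into the nose, so all of them bore tumours and no group without tumours was measured. The 10 mice were adult males, and the labels do not give the age of each. In 5 of them, called NCACS (non-cachectic), body weight had changed by -3% to -14%, and in the other 5, called CACS (cachectic), by -29% to -33%. Each liver was a separate mouse with its own poly(A) RNA library. Mice are named here by the numbers in their labels, 11 to 15 for NCACS and 16 to 20 for CACS.

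The sinusoid is the capillary of the liver, and its endothelium is unlike that of other vessels. It is pierced by open pores, lacks a continuous basement membrane, and clears waste proteins, polysaccharides and colloids from blood through scavenger receptors such as the stabilins. It also instructs the cells around it: WNT2 and R-spondin 3 from the pericentral endothelium keep up β-catenin signalling in the hepatocytes beside the central vein, while BMP2 drives hepatocyte expression of hepcidin, the hormone that limits iron release into blood. When sinusoidal cells lose these features and take on those of an ordinary capillary, the change is called capillarization.

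The libraries held 31945328 to 38306888 counts in NCACS and 31459179 to 40746178 in CACS. By the quasi-likelihood test of edgeR, with p-values adjusted over all genes after Benjamini and Hochberg, 538 of 14143 genes (3.80%) had an adjusted p under 0.05, 267 of them higher in CACS and 271 lower. Endothelial RNA was present in every library. All 24 genes of a pan-endothelial list were tested and had reads in every liver, the lowest count being 15 (Sox7 in mouse 15). Their summed level was 236 to 347 CPM (reads per 1e6 reads of the library, scaled by TMM) in NCACS and 277 to 297 CPM in CACS. Stk11, one of the altered genes, was measured at 59.6 to 81.4 CPM in all livers, which checks no label because Cre was delivered to the lung.

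None of the 10 sinusoidal and angiocrine genes passed the test between CACS and NCACS, against 3.80% of all genes. In edgeR's test 0 of 10 had an unadjusted p under 0.05, a level that 21.6% of all genes reached, and DESeq2 and limma-voom also called 0 of 10. All 10 estimated differences were above 0, as were 49.4% of those of all genes, with a median log2 fold change of 0.22 over the 10 and -0.005 over all genes. The NCACS and CACS values overlapped for each of the 10 genes, whereas the groups did not overlap for 7.07% of genes. The genes are largely made by the same cells and are not independent of each other, so the shared sign is given as a description. In whole liver, a different number of endothelial cells and a different amount of RNA in each cell cannot be told apart, whichever the direction.

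**Figure D1:**
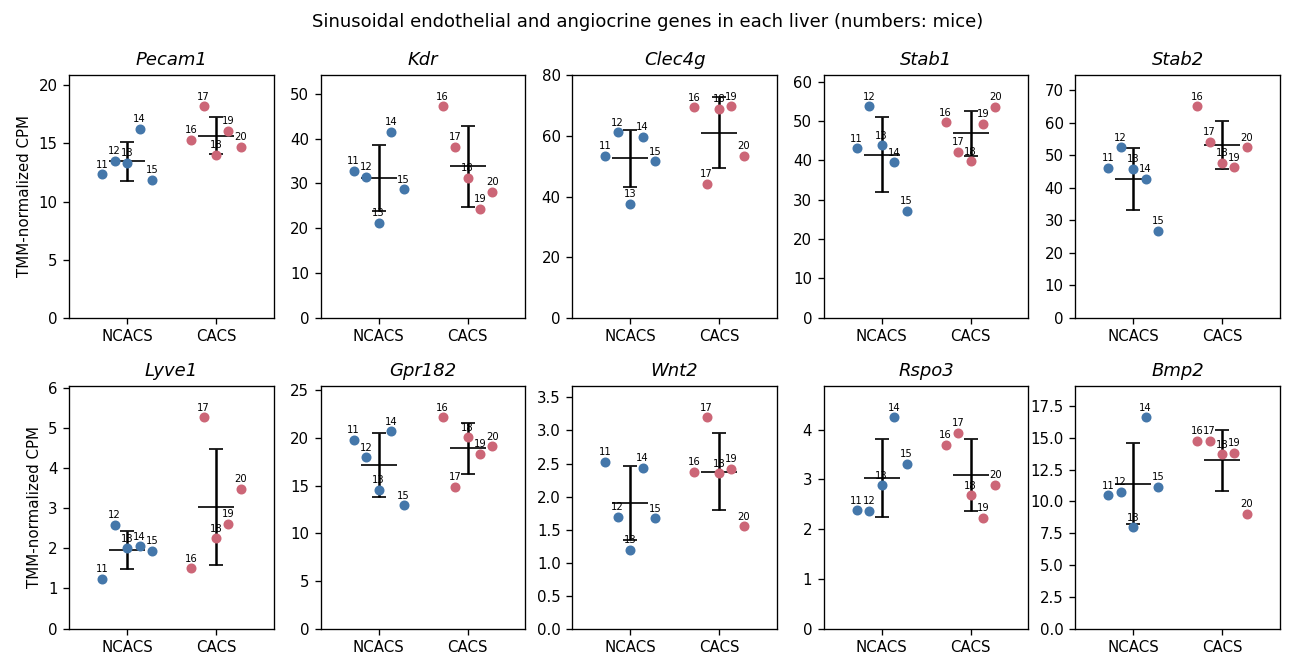
TMM-normalized CPM (vertical axes, starting at 0) of the 10 genes in each liver; a point is 1 mouse with its number, the wide bar is the group mean and the whiskers are 1 SD (n = 5 mice a group). The NCACS and CACS points overlap in every panel, mice 13 and 15 sit low in several panels, and the CACS mean lies above the NCACS mean throughout.

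Pecam1, which encodes the junction protein CD31 found on all endothelium, lies at chr11:106654217-106750628 (GRCm38, minus strand). It was measured in NCACS mice 11 to 15 at 12.3, 13.5, 13.3, 16.2 and 11.9 CPM, and in CACS mice 16 to 20 at 15.3, 18.2, 14.03, 16.1 and 14.7 CPM. The 5 CACS livers lay within or above the NCACS range, and the NCACS liver of mouse 14 was higher than all CACS livers except that of mouse 17. The means were 13.5 ± 1.696 CPM in NCACS and 15.6 ± 1.599 CPM in CACS (SD, n = 5 each). CACS exceeded NCACS by 0.22 on the log2 scale (SE 0.109, edgeR adjusted p = 0.273). Kdr encodes VEGFR2, the main receptor through which VEGF-A maintains sinusoidal endothelium, and lies at chr5:75932827-75978458. Its values were 32.8, 31.4, 21.2, 41.6 and 28.7 CPM in NCACS mice 11 to 15 and 47.2, 38.2, 31.2, 24.3 and 28.2 CPM in CACS mice 16 to 20. Both groups spanned about the same range, with the lowest liver in NCACS and the highest in CACS. The log2 fold change was 0.12 (SE 0.200, edgeR adjusted p = 0.779), with estimates of -0.03 when CACS mouse 16 was left out and of 0.25 when NCACS mouse 14 was.

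The scavenger receptors and lectins are the genes by which sinusoidal cells are best told from other endothelium. Clec4g encodes LSECtin, a C-type lectin of the sinusoidal surface, at chr8:3707064-3720651 (minus strand). It was measured at 53.4, 61.2, 37.5, 59.7 and 51.7 CPM in NCACS mice 11 to 15 and at 69.5, 44.2, 68.9, 69.7 and 53.4 CPM in CACS mice 16 to 20. In all, 3 of the CACS livers were above all NCACS livers, while that of mouse 17 was below all but 1 of them. For the groups this gave a log2 fold change of 0.21 (SE 0.160, edgeR adjusted p = 0.469), which was 0.11 without NCACS mouse 13. Gm16553, an antisense gene, shares 146 exon bases with Clec4g. Opposite-strand genes also share exon bases with Stab2 (Gm16268, 141 bases), Stab1 (Nt5dc2, 112 bases) and Gpr182 (Zbtb39, 74 bases), and the sources used here do not state whether strand was used in counting.

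Stab2 and Stab1 encode the stabilins, large endocytic receptors; stabilin-2 takes up hyaluronan, and stabilin-1 is also made by some macrophages. Stab2, at chr10:86841198-87008025, was at 46.1, 52.4, 45.7, 42.8 and 26.7 CPM in NCACS mice 11 to 15 and at 64.98, 54.1, 47.6, 46.3 and 52.4 CPM in CACS mice 16 to 20. The lowest CACS liver was above 4 of the 5 NCACS livers, and the group means were 42.7 ± 9.64 and 53.1 ± 7.40 CPM (SD, n = 5 each). The log2 fold change of 0.31 (SE 0.163) had an edgeR adjusted p of 0.291, and the two-sided exact permutation p over all ways of assigning 5 of the 10 livers to CACS was 0.0556, where the smallest possible is 0.00794. The exact permutation p of the other 9 genes ran from 0.0714 for Pecam1 to 0.921 for Rspo3, with no adjustment over genes. Without NCACS mouse 15, the lowest liver, the log2 fold change was 0.19. Stab1, at chr14:31139013-31168641, was at 43.0, 53.7, 43.8, 39.5 and 27.2 CPM in NCACS mice 11 to 15 and at 49.7, 42.1, 39.8, 49.3 and 53.5 CPM in CACS mice 16 to 20. Mouse 15 was again the lowest and the highest value, that of mouse 12, was in NCACS. The log2 fold change was 0.18 (SE 0.158, edgeR adjusted p = 0.550), and it was 0.06 without mouse 15 and 0.29 without mouse 12.

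Lyve1 encodes a hyaluronan receptor shared by sinusoidal and lymphatic endothelium, at chr7:110850607-110863239. It was among the least covered of the 10 genes, at 42 to 201 reads a liver. Its values were 1.25, 2.59, 2.01, 2.05 and 1.95 CPM in NCACS mice 11 to 15 and 1.499, 5.27, 2.25, 2.62 and 3.49 CPM in CACS mice 16 to 20. The CACS livers of mice 17, 19 and 20 were above all NCACS livers, and that of mouse 16 was below 4 of them. The estimate was the highest of the 10, a log2 fold change of 0.62 (SE 0.316, edgeR adjusted p = 0.280), and it was 0.33 without CACS mouse 17. Gpr182 encodes an atypical receptor that binds chemokines on sinusoidal endothelium, at chr10:127747276-127751732. Its values were 19.8, 17.95, 14.5, 20.7 and 12.9 CPM in NCACS mice 11 to 15 and 22.2, 14.8, 20.1, 18.3 and 19.1 CPM in CACS mice 16 to 20. The groups overlapped over most of their ranges, with a log2 fold change of 0.14 (SE 0.148, edgeR adjusted p = 0.636), which was 0.05 without NCACS mouse 15 and 0.22 without CACS mouse 17.

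The angiocrine ligands act from the endothelium on the hepatocytes behind it. Wnt2, at chr6:17988940-18030585, had 37 to 122 reads a liver. Its values were 2.52, 1.69, 1.20, 2.44 and 1.67 CPM in NCACS mice 11 to 15 and 2.37, 3.20, 2.35, 2.42 and 1.55 CPM in CACS mice 16 to 20. In CACS, 4 livers were at or above 2.35 CPM, a level that 2 of the 5 NCACS livers also passed. CACS over NCACS gave a log2 fold change of 0.32 (SE 0.249, edgeR adjusted p = 0.486), and 0.19 without CACS mouse 17. Rspo3, at chr10:29452416-29535867, encodes R-spondin 3, which raises Wnt signalling by sparing Frizzled receptors from removal. It was at 2.37, 2.37, 2.88, 4.25 and 3.30 CPM in NCACS mice 11 to 15 and at 3.70, 3.93, 2.68, 2.23 and 2.89 CPM in CACS mice 16 to 20. The groups covered nearly the same range, and the log2 fold change of 0.03 (SE 0.218, edgeR adjusted p = 0.959) was below 0 when mouse 11, 12, 16 or 17 was left out, with -0.07 as the lowest value. Gm48159, an antisense gene, shares 404 exon bases with Rspo3.

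Bmp2, at chr2:133552159-133562885, was at 10.5, 10.7, 7.96, 16.6 and 11.2 CPM in NCACS mice 11 to 15 and at 14.8, 14.8, 13.7, 13.8 and 9.05 CPM in CACS mice 16 to 20. In CACS, 4 livers lay close together above all NCACS livers except that of mouse 14, and the liver of mouse 20 lay below 4 NCACS livers. Between the groups the log2 difference was 0.22 (SE 0.192, edgeR adjusted p = 0.550). Leaving out NCACS mouse 14 gave 0.39, and leaving out NCACS mouse 13 gave 0.11.

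**Figure D2:**
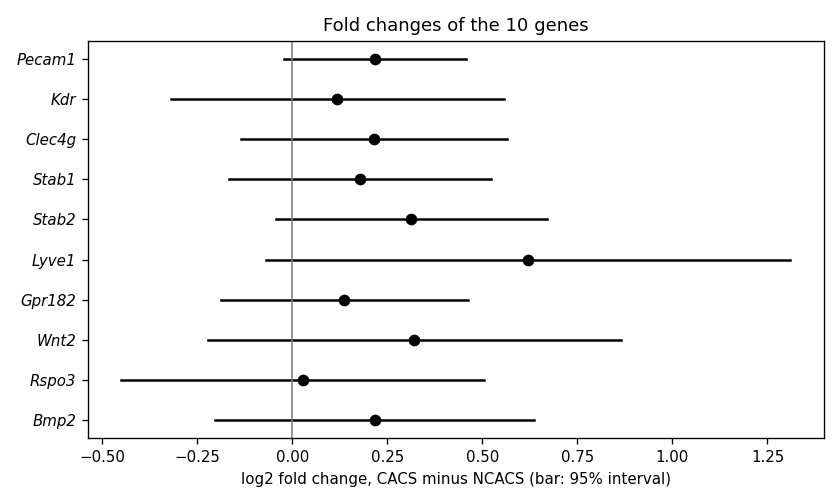
Log2 fold change, CACS minus NCACS, of each of the 10 genes (horizontal axis; points are edgeR estimates and bars are 95% intervals, n = 5 mice a group). Every interval includes 0 and every point lies above 0, from 0.03 for Rspo3 to 0.62 for Lyve1.

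The intervals state how large a difference these 10 livers leave possible. As folds of CACS over NCACS, the 95% interval ran from 0.986 to 1.37 for Pecam1, from 0.802 to 1.47 for Kdr, from 0.910 to 1.48 for Clec4g and from 0.879 to 1.38 for Gpr182. It ran from 0.891 to 1.44 for Stab1 and from 0.971 to 1.59 for Stab2. For the ligands it ran from 0.857 to 1.82 for Wnt2, from 0.732 to 1.42 for Rspo3 and from 0.869 to 1.55 for Bmp2. It was widest for Lyve1, at 0.953 to 2.48. A fall to below 0.732 of the NCACS level, the lowest of these limits, was outside the interval of each of the 10 genes, and the lower limits of the other 9 ranged from 0.802 for Kdr to 0.986 for Pecam1.

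Levels of different genes were compared per kilobase of exon. On this scale Clec4g was the most abundant of the 10, with a mean of 23.1 CPM per kb over the 10 livers. It was followed by Stab2 at 5.47, Gpr182 at 4.56, Stab1 at 4.29, Kdr at 3.60, Bmp2 at 3.46 and Pecam1 at 2.34 CPM per kb. Rspo3 at 0.990, Wnt2 at 0.949 and Lyve1 at 0.855 CPM per kb were the lowest. Between neighbours in this order, the ranges over livers were apart for Clec4g against Stab2 and for Pecam1 against Rspo3, and overlapped for the other pairs. Bmp2 nevertheless exceeded Pecam1 in 10 of 10 livers, and Stab2 exceeded Gpr182 in 8 of 10. With the length of the longest transcript in place of all exons, Clec4g stayed highest, at 36.5 CPM per kb in NCACS and 42.4 in CACS, but the order of others changed. On that scale Pecam1 was above Bmp2, at 3.91 against 3.20 CPM per kb in NCACS and 4.55 against 3.72 in CACS, and Kdr, at 5.26, was above Stab2, at 5.19, in NCACS.

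**Figure D3:**
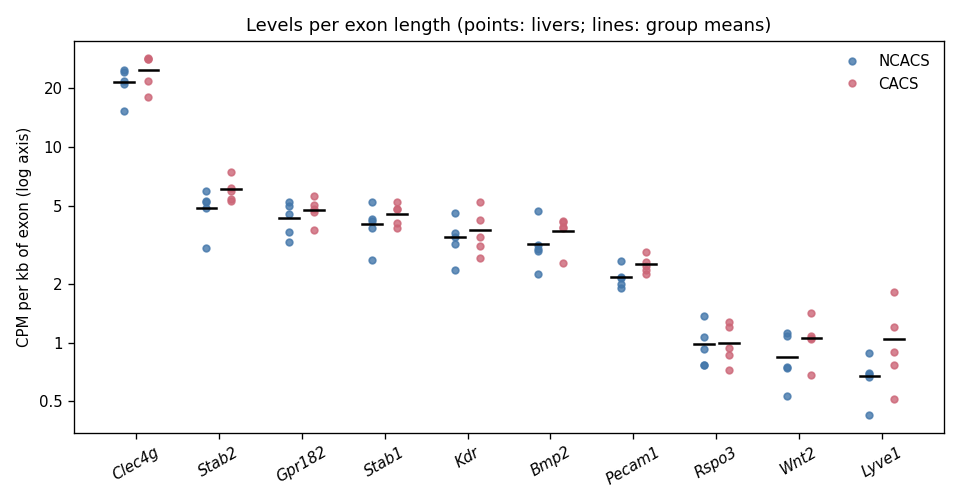
CPM per kb of exon (log axis) of the 10 genes, ordered by their mean over livers; points are livers (5 NCACS, 5 CACS) and lines are group means. Clec4g, at a mean of 23.1 CPM per kb, stands above the other 9 genes, and Rspo3, Wnt2 and Lyve1 form the lowest group near 1 CPM per kb.

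The sequences just before the start of Clec4g and Stab1 are shown because these receptors mark the sinusoidal cell. No annotated transcript of the gene itself reaches into either sequence, and transcripts of other genes were not checked. RefSeq's promoter table for GRCm38.p6 held 5 of the 10 genes, namely Kdr, Stab1, Stab2, Clec4g and Wnt2. The 250 bases upstream of the start, on the minus strand at chr8:3720652-3720901 for Clec4g and chr14:31168642-31168891 for Stab1, are printed 5′ to 3′. Capitals mark matches on either strand to AGGAAG or CGGAAG, core letters bound by ETS factors of endothelium, and to ACAATG, a SOX core.
Clec4g: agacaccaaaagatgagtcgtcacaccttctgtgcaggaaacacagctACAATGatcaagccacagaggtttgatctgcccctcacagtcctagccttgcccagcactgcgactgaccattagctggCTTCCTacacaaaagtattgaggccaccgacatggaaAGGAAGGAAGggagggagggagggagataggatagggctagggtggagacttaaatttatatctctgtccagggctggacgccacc
Stab1: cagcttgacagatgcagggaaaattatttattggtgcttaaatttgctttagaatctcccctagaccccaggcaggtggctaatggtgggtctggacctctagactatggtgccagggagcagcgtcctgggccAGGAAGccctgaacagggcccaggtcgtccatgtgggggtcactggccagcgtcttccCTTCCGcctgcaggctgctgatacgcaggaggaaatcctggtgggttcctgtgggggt
Clec4g held 3 AGGAAG matches, beginning 123, 86 and 82 bases before the start, the last pair overlapping, and 1 ACAATG match at 202 bases. Stab1 held 1 AGGAAG match at 116 bases and 1 CGGAAG match at 58 bases. Of all 32851 promoter windows of this length, 29.5% held AGGAAG, 13.6% CGGAAG and 10.7% ACAATG. Of GATA letters only AGATAA was searched, and other GATA spellings were not. AGATAA was found in 9.99% of windows and in none of the 5. A match describes letters and is not a site of binding.

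The 10 genes varied together across livers to some degree. Mice 13 and 15, the NCACS mice with weight changes of -11% and -14%, each had the lowest value of the 10 livers for 4 of the 10 genes, and each was among the 3 lowest for 7. CACS mice 16 and 17 each had the highest value for 3 genes and were among the 3 highest for 7. NCACS mouse 14 was among the 3 highest for 6 genes. The 5 other genes whose pattern over the 10 livers was most like the average of the 7 surface markers, among 9228 genes with at least 5 CPM, were Tgfbr3, Arhgef15, Ecm1, 9430015G10Rik and Srrm2. Likeness was the mean absolute difference of standardized log2 CPM, which was 0.237 for Tgfbr3 and 0.282 for Srrm2 against a median of 1.07 over all candidates. The 7 markers themselves differed from their own average by 0.380 for Stab2 to 0.898 for Lyve1. Each marker is part of that average, so its difference cannot be compared with those of the other genes.

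Relative to Pecam1, the proportions of the sinusoidal genes overlapped between the groups. Stab2 reads were 319% ± 71.0 of Pecam1 reads in NCACS and 341% ± 54.7 in CACS (SD, n = 5 each). Clec4g reads were 394% ± 70.6 and 397% ± 97.9 of Pecam1 reads, and Bmp2 reads 84.1% ± 16.2 and 84.7% ± 14.6. Rspo3 reads were 22.5% ± 4.44 of Pecam1 reads in NCACS and 19.7% ± 3.82 in CACS. Stab2 reads were also set against the summed reads of the 24 pan-endothelial genes, which do not include Stab2. The ratio was 14.4% ± 2.47 in NCACS and 18.3% ± 2.15 in CACS, with overlapping ranges of 11.3% to 17.2% and 16.7% to 21.95%. With library sizes taken from the pan-endothelial counts, Stab2 was 1 gene of the 10 with an unadjusted p under 0.05, and 0 of 10 passed the adjusted threshold.

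Other genes of sinusoidal endothelium were measured as a list of 15, all tested, of which 0 passed edgeR's threshold and 1 had an unadjusted p under 0.05. The shares to set beside the counts of this and each later list are those over all genes. They were 3.80% past edgeR's threshold and 21.6% at an unadjusted p under 0.05. List calls by DESeq2 and limma-voom are to be set beside their own totals over all genes. DESeq2 called 1386 genes and limma-voom 509, against 538 by edgeR. The median log2 fold change of the 15 sinusoidal genes was -0.005, with 7 above and 8 below 0, and limma-voom called 0. Adam23 had the greatest estimate, a log2 fold change of 0.87 (SE 0.243, adjusted p = 0.0663), with 13.3 to 17.8 CPM in NCACS and 12.8 to 40.0 CPM in CACS; DESeq2 called it at an adjusted p of 0.0120. Dnase1l3, a secreted DNase made by sinusoidal cells, showed a log2 fold change of -0.31 (adjusted p = 0.327), which was -0.12 without NCACS mouse 14, and Fam167b one of 0.41 (adjusted p = 0.282).

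Of the 24 pan-endothelial genes 0 passed edgeR's threshold and 5 had an unadjusted p under 0.05, with a median log2 fold change of 0.11; DESeq2 called 2 and limma-voom 0. Nos3, the endothelial nitric oxide synthase, showed a log2 fold change of 0.65 (adjusted p = 0.175). Esam, a junction protein, was at 6.08 to 10.4 CPM in NCACS and 11.04 to 12.1 CPM in CACS, ranges that did not overlap (log2 fold change 0.49, adjusted p = 0.0670). S1pr1, the receptor for sphingosine 1-phosphate that keeps endothelial junctions closed, had the opposite sign, at 63.9 to 75.3 CPM in NCACS and 34.2 to 65.9 CPM in CACS (log2 fold change -0.50, adjusted p = 0.0765).

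Genes of capillarization, vessel zones and lymphatics gave 1 call in edgeR, 1 in limma-voom and 2 in DESeq2, all in the central vein list. Of 10 capillarization genes tested, among them basement membrane collagens and laminins, 0 passed edgeR's threshold in either direction and 1 had an unadjusted p under 0.05, with a median log2 fold change of -0.07; DESeq2 and limma-voom also called 0. Ly6a showed a log2 fold change of -0.66 (adjusted p = 0.177), Col4a1 of -0.25 (adjusted p = 0.685) and Vwf of 0.24 (adjusted p = 0.549). Single mice decided these last estimates: Col4a1 was at -0.001 without mouse 13 and -0.55 without mouse 16, and Vwf at 0.08 without mouse 20. Of 6 central vein genes, Cdh13, which encodes T-cadherin, was higher in CACS. It was measured at 1.31, 0.498, 0.841, 1.05 and 0.741 CPM in NCACS mice 11 to 15 and at 1.97, 1.63, 1.57, 2.17 and 1.80 CPM in CACS mice 16 to 20, with no overlap (log2 fold change 1.04, SE 0.254, edgeR adjusted p = 0.0450). Thbd, thrombomodulin, showed a log2 fold change of 0.77 (edgeR adjusted p = 0.0904, DESeq2 adjusted p = 0.0289). The Cdh13 call held without NCACS mouse 11 and was lost without each of the other 9 mice (adjusted p 0.0549 to 0.0974). Of 7 portal genes and 3 lymphatic genes tested 0 and 0 passed, with 0 and 1 at an unadjusted p under 0.05 and 0 calls by DESeq2 and limma-voom. Adgrg6 of the portal list showed a log2 fold change of -0.66 (adjusted p = 0.280), and Pdpn of the lymphatic list, at 0.228 to 1.51 CPM, one of -1.06 (adjusted p = 0.142). Of the portal estimates 1 was above 0, at 0.47, and 6 were below. Of the lymphatic estimates 1 was below 0 and 2 were above, those of Flt4, the highest at 0.13, and Prox1. Flt4 is also in the lists of other sinusoidal genes and of VEGF genes. Prox1 was at 92.9 to 173 CPM over the livers, and which liver cells made its RNA was not tested. Ccl21a, a defining lymphatic chemokine, had 0 counts in all livers.

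The Wnt axis was then followed from ligand to receptor to target. Beside Wnt2 and Rspo3, the central vein ligand Wnt9b, named here after its values were seen, showed a log2 fold change of 0.16 (adjusted p = 0.786). In the receptor complex 1 of 13 genes tested passed edgeR's threshold, against 3.80% of all genes. An unadjusted p under 0.05 was reached by 4, against 21.6% of all genes. Below 0 were 12 of 13 estimates, with a median of -0.25 against -0.005 over all genes. The called gene was Lgr5, a receptor for R-spondins made by pericentral hepatocytes. Lgr5 was at 5.61, 6.996, 7.47, 7.11 and 8.43 CPM in NCACS mice 11 to 15 and at 2.82, 5.46, 3.49, 4.73 and 4.15 CPM in CACS mice 16 to 20. All CACS livers were below all NCACS livers, with mice 11 and 17 close to each other. The log2 fold change was -0.78 (SE 0.185, edgeR adjusted p = 0.0408). This call held without CACS mouse 17 and was lost without each of the other 9 mice (adjusted p 0.0577 to 0.0842). It was also lost with raw library totals (adjusted p = 0.0628) and with pan-endothelial counts as library sizes (adjusted p = 0.0940). Fzd5, a Frizzled receptor, showed a log2 fold change of -0.44 (adjusted p = 0.158), and the co-receptor Lrp5 one of -0.43 (adjusted p = 0.137).

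Of the 11 pericentral genes that β-catenin maintains in hepatocytes, 0 passed edgeR's threshold, while DESeq2 called 2 and limma-voom 0. An unadjusted p under 0.05 was reached by 3, against 21.6% of all genes. The median log2 fold change was -0.22, with 8 of 11 estimates below 0. Rhbg, an ammonium transporter, was at 1.34 to 4.51 CPM in NCACS and 0.577 to 1.98 CPM in CACS (log2 fold change -1.28, adjusted p = 0.112). Sp5, a transcription factor induced by Wnt, showed a log2 fold change of -0.79 (adjusted p = 0.157), and Cyp1a2, a pericentral cytochrome P450, one of -0.55 (adjusted p = 0.0774). Cyp2e1, another pericentral cytochrome P450, was named after its values were seen and had the opposite sign. It was the 1 gene of the 11 whose groups did not overlap, against 7.07% of all genes. It was at 6235 to 8866 CPM in NCACS and 8955 to 11049.5 CPM in CACS (log2 fold change 0.31, adjusted p = 0.268). Glul, the glutamine synthetase of the innermost pericentral hepatocytes, named after its values were seen, showed a log2 fold change of -0.01 (SE 0.109, adjusted p = 0.956), at 532 ± 27.7 CPM in NCACS and 527 ± 61.1 CPM in CACS (SD, n = 5 each).

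**Figure D4:**
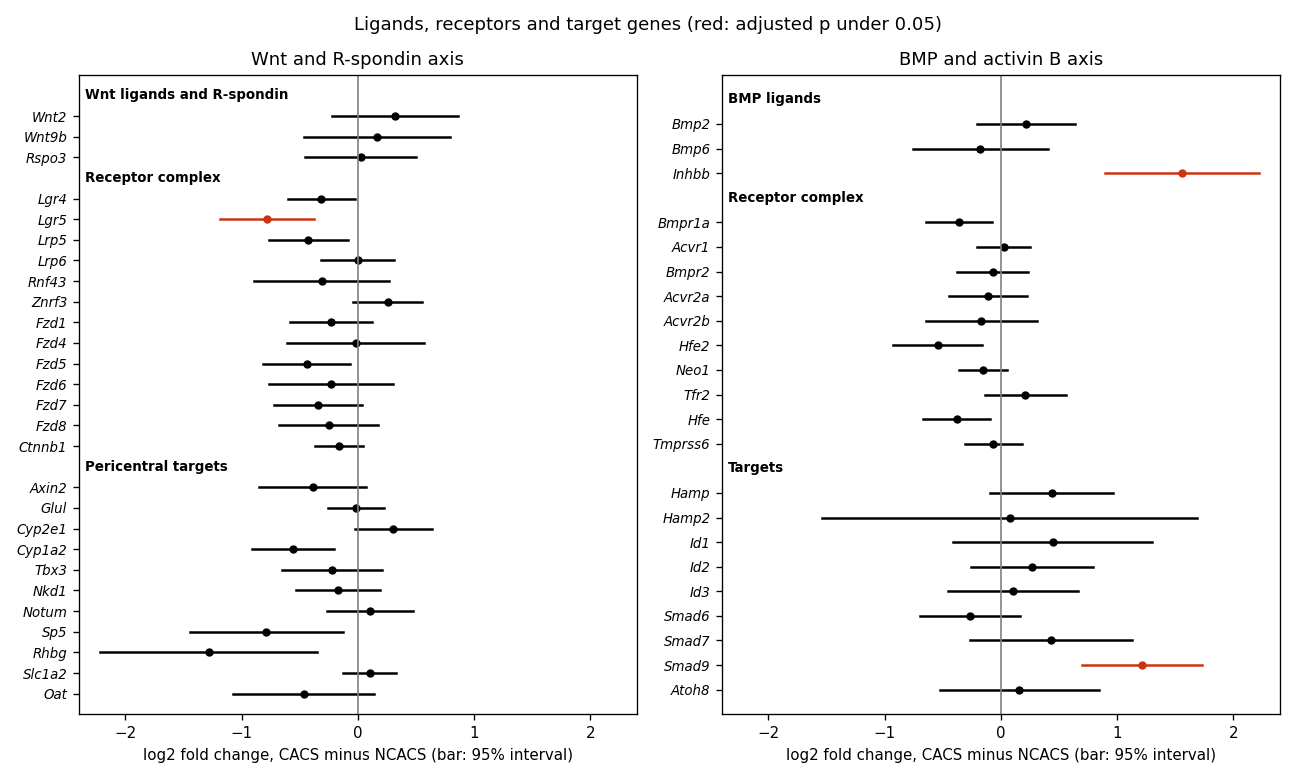
Log2 fold change, CACS minus NCACS, with its 95% interval (horizontal axes, n = 5 mice a group) of ligands, receptor components and target genes of the Wnt and R-spondin axis (left) and of the BMP and activin B axis (right); red marks an edgeR adjusted p under 0.05. The ligands Wnt2, Rspo3 and Bmp2 straddle 0, Lgr5 at -0.78 lies below it, and Inhbb at 1.56 and Smad9 at 1.22 lie above it.

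On the BMP axis, 1 ligand of a related family was higher in CACS. Among 17 other angiocrine genes tested, the call was Inhbb, which encodes the subunit of activin B, a ligand that can also act on the hepcidin pathway in liver. Inhbb was at 1.51, 1.74, 0.614, 1.38 and 1.42 CPM in NCACS mice 11 to 15 and at 2.20, 3.23, 4.18, 5.61 and 4.58 CPM in CACS mice 16 to 20. Every CACS liver was above every NCACS liver, with a log2 fold change of 1.56 (SE 0.303, edgeR adjusted p = 0.0233). The adjusted p was 0.0525 without mouse 11, 0.0515 without mouse 14, 0.0514 without mouse 19 and 0.0513 without mouse 20, and under 0.05 without each of the other 6. Which liver cells made the Inhbb RNA was not tested. Bmp6, another BMP ligand of the same list, was named after its values were seen. It had the opposite sign, with a log2 fold change of -0.18 (edgeR adjusted p = 0.754). Dll1, a Notch ligand, showed a log2 fold change of 0.49 (adjusted p = 0.350), which was 0.15 without CACS mouse 20. Rspo1 had an estimate of -0.52 (adjusted p = 0.528), from -0.82 without mouse 19 to -0.30 without mouse 11.

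In the BMP receptor complex 0 of 10 genes tested passed edgeR's threshold, 3 had an unadjusted p under 0.05 while DESeq2 called 1 and limma-voom 0, with a median log2 fold change of -0.13. The hemojuvelin gene, Hfe2, a co-receptor for BMPs, showed a log2 fold change of -0.54 (adjusted p = 0.105), Hfe one of -0.38 (adjusted p = 0.122) and the type I receptor gene Bmpr1a one of -0.36 (adjusted p = 0.135). Of 9 BMP target genes, Smad9, which encodes the receptor-activated SMAD8, was higher in CACS, and 8 of 9 estimates were above 0 with a median of 0.27. Smad9 was at 14.2, 14.9, 8.60, 12.6 and 10.3 CPM in NCACS mice 11 to 15 and at 38.5, 36.5, 26.7, 23.4 and 15.8 CPM in CACS mice 16 to 20. The groups did not overlap, though mouse 20 was close to mouse 12. The log2 fold change was 1.22 (SE 0.236, edgeR adjusted p = 0.0233), with an adjusted p of 0.0503 without mouse 14, 0.0527 without mouse 16 and under 0.05 without each of the other 8. Hamp, hepcidin itself, was at 822 to 2364 CPM in NCACS and 1829.6 to 2415 CPM in CACS (log2 fold change 0.44, adjusted p = 0.323). Without NCACS mouse 13 the Hamp estimate was 0.28. Id1 showed a log2 fold change of 0.44 (adjusted p = 0.550), which was 0.22 without NCACS mouse 13 and 0.98 without NCACS mouse 14.

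Around Kdr, 0 of 8 other VEGF ligand and receptor genes tested passed edgeR's threshold, 2 had an unadjusted p under 0.05, while DESeq2 called both and limma-voom 0. Vegfa, the ligand that hepatocytes supply to sinusoidal cells, was at 128 to 203 CPM in NCACS and 199 to 294 CPM in CACS (log2 fold change 0.47, adjusted p = 0.0898). Nrp2, a co-receptor for VEGF-C and semaphorins, was at 16.04 to 43.7 CPM in NCACS and 10.9 to 17.8 CPM in CACS (log2 fold change -0.84, adjusted p = 0.102), and its estimate was -0.48 without mouse 15. Vegfb showed a log2 fold change of 0.21 (adjusted p = 0.592), which was 0.08 without mouse 15.

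Markers of the other cells of the liver were measured beside these genes. Of 10 Kupffer cell genes, Cd5l was lower in CACS (log2 fold change -0.90, SE 0.207, edgeR adjusted p = 0.0374) and all 10 estimates were below 0, with a summed level of 229 to 409 CPM in NCACS and 148 to 313 CPM in CACS. Marco showed a log2 fold change of -1.22 (adjusted p = 0.0968) and Adgre1, which encodes F4/80, one of -0.96 (adjusted p = 0.0583). DESeq2 called 3 of the 10, Cd5l, Marco (adjusted p = 0.0157) and Adgre1 (adjusted p = 0.00623), and limma-voom called 1. The Cd5l call held without mice 14 and 19 and was lost without each of the other 8 (adjusted p 0.0513 to 0.0862). Of 5 leukocyte genes tested 0 passed edgeR's threshold, 4 had an unadjusted p under 0.05, DESeq2 called 3 and limma-voom 0, and all 5 estimates were below 0, with a summed level of 9.85 to 29.98 CPM in NCACS and 6.16 to 14.3 CPM in CACS. S100a8 and S100a9, which encode calprotectin of neutrophils, had log2 fold changes of -1.79 and -1.66 (adjusted p 0.111 and 0.124); without mouse 13 the S100a8 estimate was -1.15. Stabilin-1 is also a macrophage product, and the part of Kupffer cells in the Stab1 values was not tested.

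Of 6 hepatocyte genes, Hnf4a, a transcription factor of hepatocyte identity, was higher in CACS (log2 fold change 0.50, SE 0.120, edgeR adjusted p = 0.0435), and the summed level of the list was 63861 to 111539 CPM in NCACS and 104250 to 129946 CPM in CACS. Most of that sum was Alb, at 45741 to 88873 CPM in NCACS, and 4 of the 6 estimates were above 0 and 2 below. Tat and Alb had log2 fold changes of 0.70 and 0.44 (adjusted p 0.363 and 0.290), and Tat was at 0.38 without mouse 17. The Hnf4a call held without mouse 18 and was lost without each of the other 9 (adjusted p 0.0516 to 0.0974). Stellate, cholangiocyte and erythroid lists, with 10, 5 and 4 genes tested, gave 0 calls each by edgeR, DESeq2 and limma-voom, with 0, 1 and 0 genes at an unadjusted p under 0.05. The lowest log2 fold changes of these lists were -0.70 for Ngfr (stellate), -1.24 for Krt7 (cholangiocyte) and -0.35 for Alas2 (erythroid). Their edgeR adjusted p were 0.267, 0.146 and 0.775, and Ngfr was at -1.14 without mouse 17. In the stellate list 7 estimates were above 0 and 3 below, with a median of 0.06 and a highest value of 0.34. Of the erythroid estimates 2 were above 0 and 2 below, and of the cholangiocyte estimates 1 was above and 4 below. Of 4 lung epithelial genes tested, Sftpa1 was higher in CACS at 1.72 to 5.65 CPM against 1.26 to 1.54 CPM in NCACS (log2 fold change 1.27, adjusted p = 0.0323). That call held without mice 17, 18 and 19 and was lost without each of the other 7 (adjusted p 0.0604 to 0.0681). Of the 4 lung estimates 3 were above 0 and 1 was below, at -0.97. The summed lung list was 2.14 to 6.403 CPM in NCACS and 2.14 to 10.1 CPM in CACS. The part of these other cells in the endothelial values was not tested.

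**Figure D5:**
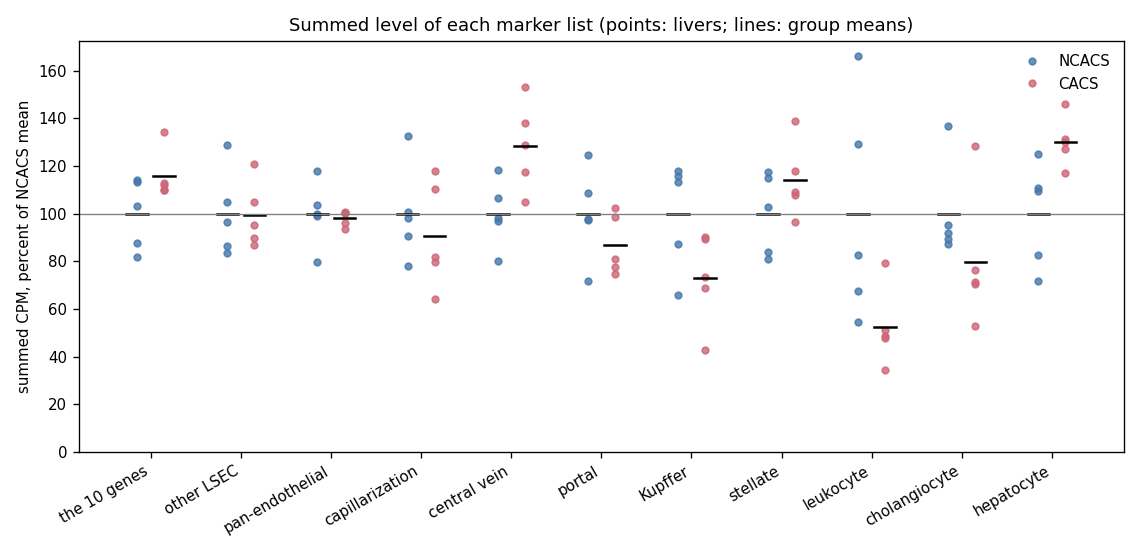
Summed CPM of the 10 genes and of 10 marker lists in each liver, as a percentage of the NCACS mean of the same list (vertical axis from 0); points are livers (5 NCACS, 5 CACS) and lines are group means. The pan-endothelial sum, 236 to 347 CPM in NCACS and 277 to 297 CPM in CACS, has a mean near 100% in both groups, while the CACS means of the Kupffer and leukocyte sums lie below 100% and that of the hepatocyte sum above it, with overlapping points.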

How the data were processed

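RNA was sequenced from 10 livers (5 NCACS, 5 CACS) with a stranded poly(A) library kit. The deposited values are raw read counts per gene, made by the authors; their processing notes name STAR 2.4.1d, HTSeq 0.6.1, DESeq2 and GRCm38. The annotation release and the strand setting of the counting are not given in the sources used here. Groups, replicate numbers and weight changes came from the labels. The members and gene lists were chosen with earlier results of these data known. Genes were filtered with filterByExpr, scaled by TMM and tested with edgeR 4.0.16 (quasi-likelihood F test, Benjamini-Hochberg over all 14143 genes, threshold 0.05) in R 4.3.3. Single genes also had an exact permutation test. Named genes were all 10 members and the 5 genes most like the marker profile. Of each list, genes past the threshold were named and, where under 3, those with the largest log2 fold changes in either direction up to 3. For some lists not all of these are printed. Positions and exon lengths came from GENCODE M21 (GRCm38) and promoters from RefSeq. CPM of single livers were scaled by TMM with no prior count. Livers of a group differed by more than sampling noise (chi-square per degree of freedom at least 50.7). Alternatives were DESeq2 1.42.0, limma-voom 3.58.1, a robust fit, RLE, upper-quartile and raw library sizes, pan-endothelial counts as library sizes, no filter, at least 10 counts in every liver, and leaving out each mouse. Some items are not reported here.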

Additional observations from a re-analysis of the deposited data

Results flagged for a closer look

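Bmp2 in the CACS livers was flagged because 1 of 5 mice lay far from the rest. Mouse 20 was at 9.05 CPM and the other 4 mice at 13.7 to 14.8 CPM. On the log2 CPM scale, the gap of mouse 20 to the nearest value was 0.844 of the range of the group. This was above Dixon's 95% critical value of 0.71 for 5 samples. Values of 24 groups were examined and chance flags about 1 in 20. The cause was not tested.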

How the results depend on the processing

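The count of 0 of 10 sinusoidal and angiocrine genes past the adjusted threshold held in each of the 9 other settings and with each of the 10 mice left out. The number of all genes past the threshold was 538, with 1386 in DESeq2, 226 with pan-endothelial counts as library sizes and 178 to 519 with 1 mouse left out. The number of listed genes past the threshold was 7, with 21 in DESeq2, 3 with pan-endothelial counts and 2 to 6 with 1 mouse left out. Without 1 mouse, the log2 fold change changed sign for Rspo3 (-0.072 to 0.18) and Kdr (-0.030 to 0.25). Among the named genes of the lists, the unnamed ones not having been examined this way, it did so for 3 that were not called, Alas2 (-0.56 to 0.18), Hba-a1 (-0.015 to 0.37) and Prox1 (-0.022 to 0.21). Over these settings, 185 of the 190 values of the 10 genes kept their direction and their side of the threshold. The Cdh13 and Hnf4a calls were also lost with no filter (adjusted p 0.0646 and 0.0763) and with pan-endothelial counts (0.0631 and 0.186), Cd5l with pan-endothelial counts (0.0631) and Sftpa1 in limma-voom (0.0584). The cause was not tested. Scaling moved the median log2 fold change of all genes by at most 0.013. No paired analysis was possible because no number in the labels occurs in both groups. Counting error had a coefficient of variation of 9.66% to 11.5% for Lyve1, Wnt2 and Rspo3, against 23.2% to 47.8% between mice of a group.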
